A study of Mus musculus with 6 samples.

Results

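Cdkn2a, Cdkn2b, Cdkn1a and Hmga2 were followed through the H3K4me3, H3K27me3 and input DNA peak lists of mouse embryonic fibroblasts. These 4 genes were selected on the presence and width of the H3K4me3 peaks listed at them, with earlier results of the same lists in view. Their loci were taken as 3 windows of the mouse build mm9, which together span 185 kb. Cdkn2a and Cdkn2b share the window chr4:88917000-88961000, Cdkn1a has chr17:29224000-29241000, and Hmga2 has chr10:119795000-119919000. A peak was a member when at least 1 bp of it lay in a window. By this rule 10 of the 38760 peaks in the 6 lists were members, all of them H3K4me3 peaks, with 4 from treated and 6 from untreated cells.

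The cells were fibroblasts from C57BL/6 embryos, grown in serum with basic fibroblast growth factor according to the labels' shared growth text. One group received the chemical combination 6TCF for 6 days, and the other was the untreated control of the same day. The labels do not spell out the agents in 6TCF, nor how many embryos or cultures went into a library. With 1 library in each of the 6 groups there is no replicate spread to set a difference against, and no p-value is given. The titles name H3K4me3 and H3K27me3, while the antibody field names H3K4me2 and H3K4me1. The titles are followed here and the mismatch is unresolved. The lists give positions only, so peak width is the one quantity per peak, sequencing depth is unknown, and an empty window may still carry the mark. The lists carry no gene names, so fibroblast markers were not scored.

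H3K4me3 is typical of promoters that are active or ready for use, and long H3K4me3 domains are often found at strongly transcribed or cell-identity genes. H3K27me3 is laid down by Polycomb complexes and is typical of silenced developmental genes. Cdkn2a encodes p16Ink4a and p19Arf from separate starts: p16Ink4a, like the Cdkn2b product p15Ink4b, inhibits the cyclin D kinases, and p19Arf stabilises p53. Cdkn1a encodes p21, a kinase inhibitor induced by p53. In mouse fibroblasts these genes rise with culture stress and senescence, and they are known barriers to the induction of pluripotency. Polycomb complexes can silence Cdkn2a and Cdkn2b in young cells. Hmga2 encodes a chromatin protein that binds AT-rich DNA, is high in embryonic cells, is repressed by let-7 microRNAs, and lowers Cdkn2a expression in mouse neural stem cells.

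The DNA just before 4 of the transcription starts is shown because the peaks described below lie in the windows of these genes and because the starts differ in base composition. The sequences are from RefSeq, build GRCm38.p6, 5′ to 3′ on the gene's strand, and hold the 250 bases before the start. All 4 genes matched the RefSeq table, with 6 starts. In the first 3 lines capitals mark CG dinucleotides. In the last line capitals mark the motif CATGNNNNNNCATG, the core of a pair of adjoining p53 half-sites.
Hmga2, chr10:120476470-120476719, minus strand: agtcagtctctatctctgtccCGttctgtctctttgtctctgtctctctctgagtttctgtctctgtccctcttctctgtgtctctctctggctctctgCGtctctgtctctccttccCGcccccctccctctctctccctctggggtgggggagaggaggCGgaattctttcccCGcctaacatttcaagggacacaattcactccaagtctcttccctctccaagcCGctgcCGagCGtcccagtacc
Cdkn2a, start nearer the gene's end (p16Ink4a), chr4:89282193-89282442, minus strand: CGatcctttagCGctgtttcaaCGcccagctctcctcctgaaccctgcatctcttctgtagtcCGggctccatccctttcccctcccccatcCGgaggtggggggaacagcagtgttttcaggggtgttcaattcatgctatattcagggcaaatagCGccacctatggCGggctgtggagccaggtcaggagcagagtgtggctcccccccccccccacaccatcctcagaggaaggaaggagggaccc
Cdkn2a, start farther upstream (p19Arf), chr4:89294620-89294869, minus strand: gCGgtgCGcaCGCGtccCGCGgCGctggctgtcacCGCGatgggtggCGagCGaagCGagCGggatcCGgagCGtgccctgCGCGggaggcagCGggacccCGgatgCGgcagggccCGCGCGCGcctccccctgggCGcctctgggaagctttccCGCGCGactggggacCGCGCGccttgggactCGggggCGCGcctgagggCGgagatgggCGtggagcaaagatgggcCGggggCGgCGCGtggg
Cdkn1a, upstream start, chr17:29090729-29090978, plus strand: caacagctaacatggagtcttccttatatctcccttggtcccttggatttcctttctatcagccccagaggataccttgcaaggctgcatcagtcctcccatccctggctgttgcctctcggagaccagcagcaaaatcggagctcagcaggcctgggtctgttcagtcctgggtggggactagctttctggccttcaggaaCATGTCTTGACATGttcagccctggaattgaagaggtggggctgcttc

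The p19Arf start of Cdkn2a held 40 CG dinucleotides, and 1.31% of 32841 RefSeq promoters of this length held at least as many. The p16Ink4a start held 7, the Hmga2 start 8 and the Cdkn2b start 12, against a median of 6 over all promoters. The 2 starts of Cdkn1a held 2 CG dinucleotides upstream and 19 downstream. The Hmga2 sequence is rich in alternating C and T, with a longest run of 23 bases that are C or T. Of all promoters 1.83% had a run at least that long. The p53-type motif was found before the upstream Cdkn1a start alone among the 6, with its first base 48 bases before the start. Of all promoters 0.49% held it, and since its letters read the same on both strands 1 search covers both. GGGCGG, the core of the GC box, was searched on both strands and was found before the downstream Cdkn1a start (2 matches), the p19Arf start (2) and the Hmga2 start (1). On either strand it was present in 32.7% of all promoters. These matches describe the letters only, and because the peaks are in mm9 and the promoters in GRCm38, no peak was assigned to a start.

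Hmga2 had an H3K4me3 peak in untreated cells and no listed peak in treated cells. The untreated peak ran from 119906916 to 119915901 on chromosome 10, a width of 8986 bp. It ranked 6 from the widest among 17168 untreated peaks. Its end lay 3099 bp inside the high end of the window, which is the side where a gene read from the minus strand, as Hmga2 is in RefSeq, begins. The remaining 111916 bp of the window below the peak held no peak of any list. The gene was chosen with this peak known, so its presence in a single list is a description and no finding. Over the whole untreated H3K4me3 list 4.73% of peaks (812 of 17168) had no treated partner.

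The nearest treated H3K4me3 peaks lay on both sides of the Hmga2 window, and the spacing of peaks over the genome was not measured. On the low side the closest treated peak, 119709001 to 119710840 (1840 bp), was 196 kb from the untreated Hmga2 peak, and on the high side 119988418 to 119990754 (2337 bp) was 72.5 kb away. Together they bounded 278 kb without any treated peak. In untreated cells the peaks flanking the Hmga2 peak bounded 322 kb, with no other untreated peak between them. Whether stretches of these lengths are unusual in the lists was not tested. The high-side neighbour was also listed in untreated cells, at 119988528 to 119990703 (2176 bp). The low-side neighbour was in the treated list only, a state shared by 10.2% of treated peaks (1854 of 18185).

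**Figure D1:**
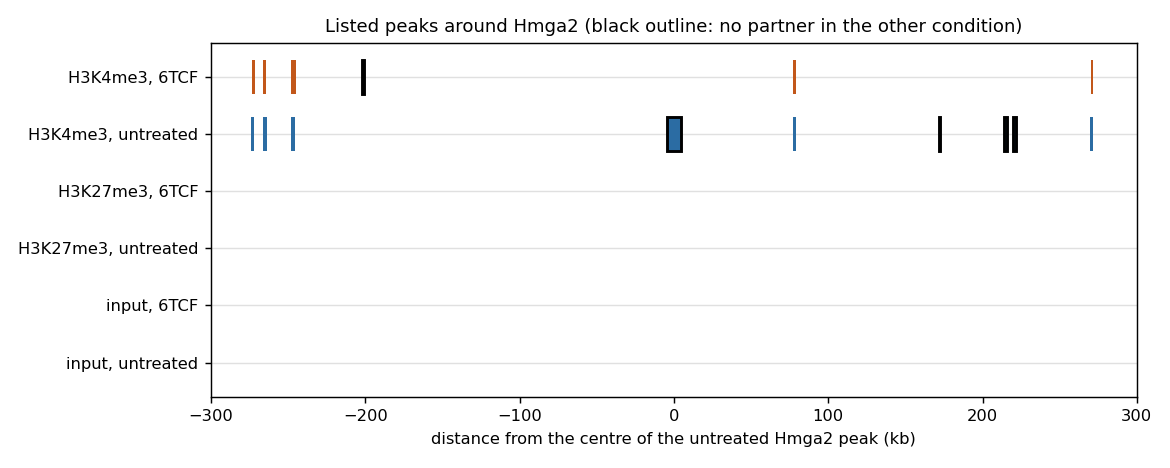
Listed peaks within 300 kb of the centre of the untreated Hmga2 peak, with 1 row per list and distance in kb on the x axis; black outlines or bars mark peaks without a partner in the other condition. The treated H3K4me3 row is empty for 278 kb around Hmga2, and the H3K27me3 and input rows hold no peak. Apart from the Hmga2 peak, the untreated H3K4me3 row is empty for 322 kb.

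**Figure D2:**
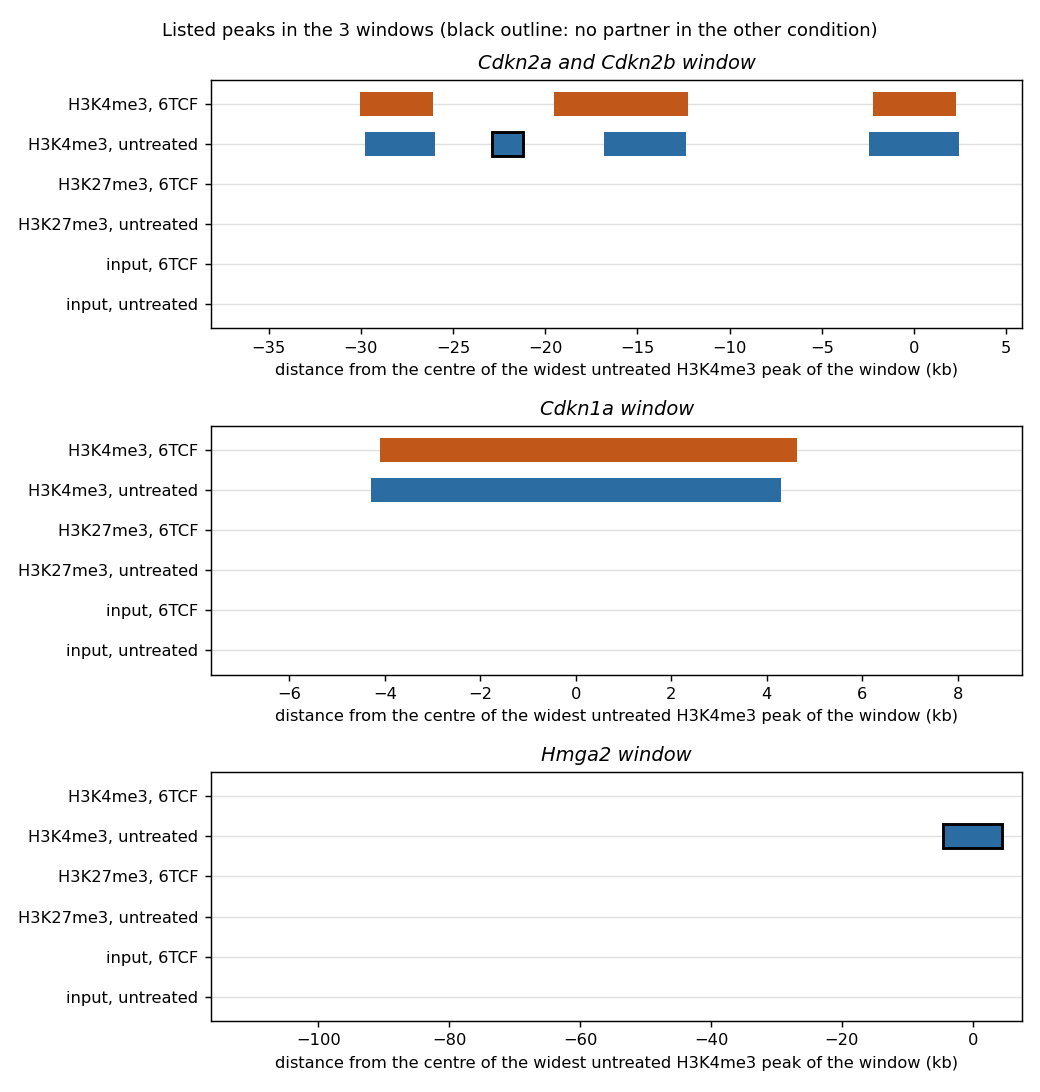
Listed peaks in the 3 windows, with 1 row per list and distance in kb from the centre of the widest untreated H3K4me3 peak of that window on the x axis. Boxes span each peak and a black outline marks a peak without a partner in the other condition; Hmga2 has 1 untreated and 0 treated H3K4me3 peaks, Cdkn1a has 1 in each, and the Cdkn2a and Cdkn2b window has 4 untreated and 3 treated, while the H3K27me3 and input rows are empty.

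The Hmga2 peak lay close to the upper end of the widths that the lists hold. The widest H3K4me3 peak of the untreated list was 9151 bp and that of the treated list 9030 bp, so the Hmga2 peak was 165 bp narrower than the former and 44 bp narrower than the latter. Whether a maximum width was set when the peaks were called is not given in the sources used, so 9151 bp is only the widest width observed. A treated peak at the same place that was more than 1.018-fold wider would exceed every listed width. Among 3898 pairs with an untreated width over 3 kb and up to 6 kb, 932 treated peaks (23.9%) were wider than their untreated partner by more than this fold. The share was lower among wider pairs, 19.6% (33 of 168) at untreated widths over 6000 to 7000 bp and 18% (11 of 61) over 7000 to 8000 bp. A pair here is a treated and an untreated peak that meet only one another among the H3K4me3 peaks.

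The share of peaks without a partner was low at middle widths. It was 23.4% (545 of 2325) for untreated and 51.1% (1296 of 2534) for treated peaks of up to 1 kb. Of untreated peaks over 3 kb and up to 6 kb, 0.455% (18 of 3953) had no treated partner, and of treated peaks 0.628% (23 of 3663) had no untreated one. Over 8 kb the untreated share was 13.2% (5 of 38, 95% Wilson interval 5.75 to 27.3) and the treated share 25% (6 of 24, 12 to 44.9). Of these, the few peaks over 9 kb differed between lists: 0 of 4 untreated peaks (0%, 0 to 49) and 2 of 2 treated peaks (100%, 34.2 to 100) had no partner. The intervals cover counting error alone and take each peak as independent of the rest. The Hmga2 peak is 1 of the 5. Of the other 33 untreated peaks over 8 kb, 31 overlapped a single treated peak of 3251 to 8741 bp (median 7128 bp), and 2 overlapped several. Among those 31, the treated peak was the wider in 5. If a maximum width was applied, the absence of a treated Hmga2 peak and a treated peak beyond that maximum cannot be told apart from these lists.

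**Figure D3:**
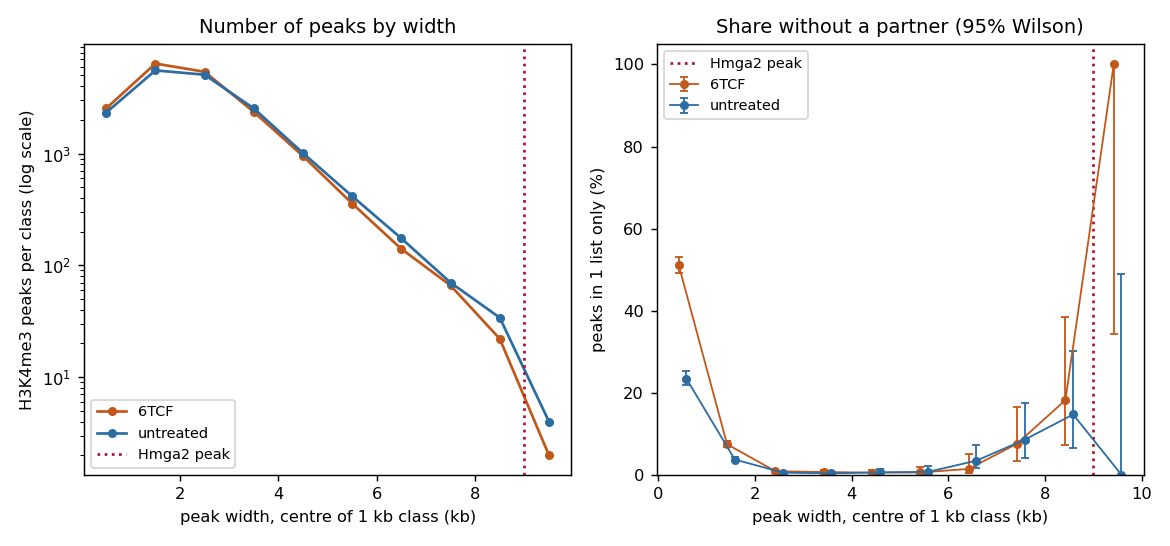
Left, number of H3K4me3 peaks per 1 kb width class (log scale); right, percent of each class without a partner in the other condition, with 95% Wilson intervals as bars, for treated (orange) and untreated (blue) cells, and the Hmga2 width as a dotted line. The share falls to under 1% between 2 and 6 kb and is 14.7% (untreated) and 18.2% (treated) in the class over 8 and up to 9 kb; the last class, over 9 kb, is at 0% of 4 untreated and 100% of 2 treated peaks.

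The untreated-only peaks closest in width to that of Hmga2 and free of input peaks had comparably distant treated neighbours. They were chr18:69503035-69511986 (8952 bp), chr9:81520853-81529578 (8726 bp) and chr13:63340366-63349071 (8706 bp). The nearest treated peak on either side was 144 and 169 kb away on chromosome 18, 1339 and 227 kb on chromosome 9, and 215 and 183 kb on chromosome 13. For Hmga2 these distances were 196 and 72.5 kb, so on the high side its treated neighbour was the closest of the 4.

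Cdkn1a kept a domain of nearly the same extent in both conditions. Its H3K4me3 peak ran from 29227541 to 29236281 in treated cells (8741 bp) and from 29227354 to 29235939 in untreated cells (8586 bp). The treated peak ranked 5 from the widest among 18185 and the untreated one 19 among 17168. The treated to untreated ratio was 1.02, and 8399 bp were common to both, which is 96.1% of the treated and 97.8% of the untreated peak. In treated cells the low edge lay 187 bp inside and the high edge 342 bp beyond the untreated edge. At Cdkn1a, unlike at Hmga2, both lists thus held a peak over 8 kb. The peaks covered 51.4% of the window in treated and 50.5% in untreated cells.

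The H3K4me3 profile of the Cdkn2a and Cdkn2b window differed between conditions in its middle part and was alike at both ends. Treated cells had 3 peaks that covered 15.7 kb, and untreated cells had 4 that covered 14.8 kb, a ratio of 1.06. In RefSeq the order of starts from low to high coordinates is p16Ink4a, p19Arf and Cdkn2b. The lists likewise held a low, a middle and a high pair, which are described in that order without being assigned to those starts.

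The low pair ran from 88925061 to 88929034 in treated cells (3974 bp) and from 88925354 to 88929137 in untreated cells (3784 bp). The ratio was 1.05, and the edges differed by 293 and 103 bp. The high pair, at the end of the window, ran from 88952915 to 88957371 in treated cells (4457 bp) and from 88952694 to 88957562 in untreated cells (4869 bp). Here the treated peak was the narrower, with a ratio of 0.915, and it lay entirely within the untreated one. Neither pair reached a 1.5-fold difference. Over all 16153 pairs 5.03% (812) were at least 1.5-fold wider in treated cells and 2.58% (416) at least 1.5-fold wider in untreated cells.

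The middle pair was wider in treated cells and its extension was on a single side. The treated peak ran from 88935585 to 88942856 (7272 bp) and the untreated peak from 88938314 to 88942746 (4433 bp), a ratio of 1.64 and a log2 ratio of 0.71. The median log2 ratio over all pairs was -0.02, and the pairs had a standard deviation of 0.33. Of all pairs 3.14% (508) had a ratio at least as high. The high edges were 110 bp apart, whereas the treated peak began 2729 bp lower than the untreated one. An edge shift of that size or more was seen in 67 of 16153 pairs (0.415%), against a median of 204 bp for the larger edge shift of a pair. These shares are over pairs of all widths, and the median listed peak was only 2026 bp (treated) or 2115 bp (untreated) wide. The locus was chosen with its peak widths known, so the shares are a description and no finding. The treated peak held the whole untreated peak, and it ranked 59 from the widest in its list, against 1154 for the untreated one.

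**Figure D4:**
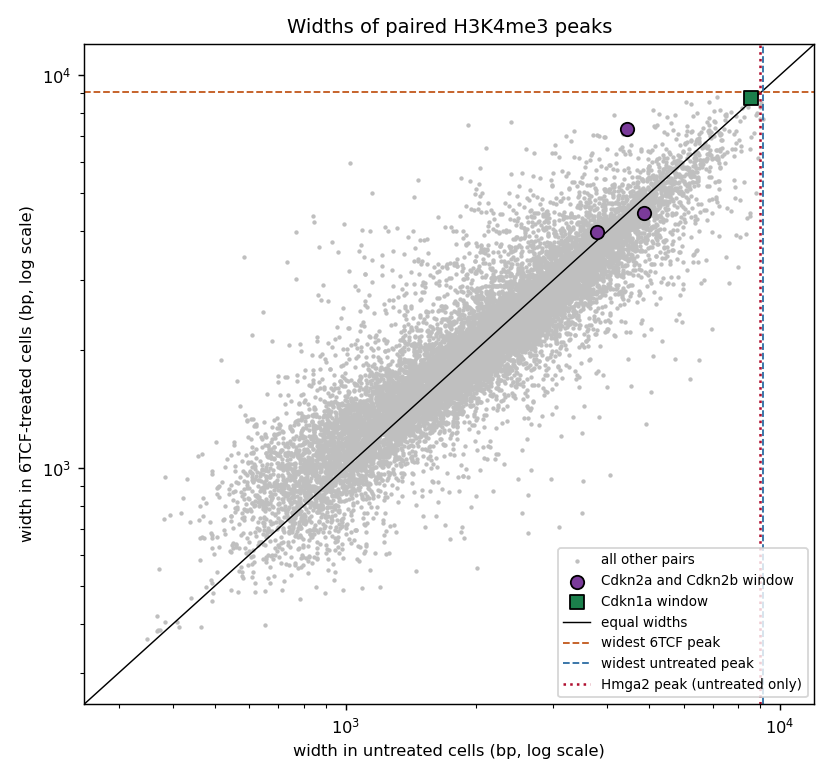
Width of each paired H3K4me3 peak in treated cells (y) against untreated cells (x), both in bp on log scales, with 16153 pairs in grey and the pairs of the windows in colour; dashed lines mark the widest listed peaks and the dotted line the unpaired Hmga2 peak. The Cdkn1a pair (8586 and 8741 bp) sits on the line of equal widths near the widest listed peaks, and 1 of the 3 Cdkn2a and Cdkn2b pairs (4433 and 7272 bp) sits above it.

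A small untreated peak stood beside the extended side of the middle pair. It ran from 88932267 to 88933938 (1672 bp), narrower than the median untreated H3K4me3 peak of 2115 bp, and no treated peak overlapped it. The treated middle peak began 1646 bp above its end, and the treated low peak ended 3232 bp below its start. In untreated cells the gap between the small and the middle peak was 4375 bp. A single treated peak that reached from the start of the small peak to the end of the middle one would span 10590 bp, which is more than the widest listed peak of 9151 bp. Whether a width limit had any part in the small peak's lack of a partner was not tested. The untreated-only peaks closest to it in width were chr4:116796923-116798598 (1676 bp), chr11:78797095-78798775 (1681 bp) and chr12:77646976-77648656 (1681 bp). The nearest treated peak was 2.6, 57.9 and 10.5 kb away from them.

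Of the 6 untreated member peaks, 2 had no treated partner, and of the 4 treated ones none lacked an untreated partner. Against the 4.73% and 10.2% over the whole lists, this count is small and the genes were chosen with it known, so nothing further is read from it. The windows ended well clear of most other peaks. Just outside lay a Cdkn1a neighbour, 1525 bp wide after treatment and 1701 bp without it, 7.95 and 7.68 kb below the window. On every other side of the 3 windows the nearest H3K4me3 peak was at least 69.4 kb away.

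No H3K27me3 peak was listed in any of the 3 windows in either condition, and no input peak was. Over the whole lists 1.36% of treated and 2.81% of untreated H3K4me3 peaks overlapped an H3K27me3 peak of their own condition. Among peaks over 3 kb, the range of 9 of the 10 member peaks, the shares were 0.771% and 0.992%. At shares this low, 0 of 4 treated and 0 of 6 untreated member peaks is near the background and is not a result about these genes. The H3K27me3 lists were short, with 821 treated and 1242 untreated peaks, and their median widths were 149 and 211.5 bp. The nearest H3K27me3 peak in untreated cells was 66.6 kb above the Cdkn1a window (142 bp wide), 229 kb below the Hmga2 window (137 bp) and 244 kb above the Cdkn2a and Cdkn2b window (149 bp). In treated cells the nearest was over 2000 kb from every window, at 2041, 2196 and 2974 kb for Cdkn2a and Cdkn2b, Hmga2 and Cdkn1a. All of these nearest H3K27me3 peaks were in 1 list only, and those in untreated cells were about as wide as the median input peak. Those in treated cells were 122 bp (Cdkn2a and Cdkn2b), 155 bp (Hmga2) and 210 bp (Cdkn1a) wide. No difference between conditions is read from these distances. Of all H3K4me3 peaks, 0.841% in the treated and 0.88% in the untreated list met an input peak. The closest input peak to any window was 552 kb above Hmga2, in untreated cells.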

How the data were processed

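Chromatin immunoprecipitation and sequencing libraries were compared as peak lists, 1 per library. Per the submitters' processing notes, CASAVA 1.7, Bowtie2 2.2.5, MACS 1.4.3, HOMER and build mm9 were used, with no role or order stated. Which tool called each list, at which threshold and against which control is not given in the sources used here. Each deposited list holds chromosome, start, end and a constant strand sign, and chromatin was sheared to 600 bp on average per the labels' protocols. Depth is unknown, so its effect on presence and width could not be assessed.

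Starts were read as 0-based and are given 1-based. Window overlap, pairing and width classes used Python 3.11.15, numpy 2.4.6 and, for the Wilson intervals, scipy 1.17.1. Member overlaps were checked against bedtools 2.31.1, and overlap, pairing and joining were tested on simulated data. All member peaks are named, with the nearest peaks outside and the 3 closest in width to an unpaired member. The members, windows and lists were chosen with earlier results of these data known. Other cell cycle inhibitors and let-7 genes were not analysed here, because no mm9 annotation was used. Alternatives varied the windows, the peak filters, the definition of a shared peak and the joining of neighbours.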

Additional observations from a re-analysis of the deposited data

How the results depend on the processing

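Several alternatives could not move these values: no member peak overlapped an input peak, and filters that remove peaks cannot add any to an empty window. Keeping the widest peaks in equal number per condition, or peaks of at least 500 bp, left every count of peaks per window unchanged. This too was fixed in advance, because the narrowest member peak was 1672 bp wide. Equal numbers dropped only treated peaks of up to 1 kb, and none from the shorter untreated list. A value was taken as moved past 1.5 times a count or base number, 1 standard deviation (0.33) of the log2 width ratio, or the Wilson interval of a share. With the windows extended by 20 kb on each side, the Cdkn1a window held 2 H3K4me3 peaks in treated and 2 in untreated cells in place of 1 each, since the extension took in a neighbouring pair. For the middle Cdkn2a and Cdkn2b pair the log2 ratio of 0.71 became 0.09 when all bases covered in the window were compared, because the small untreated peak and the other pairs then count. By the same measure the high pair went from -0.13 to 0.09, a change within 1 standard deviation that was not taken as moved. For the empty treated Hmga2 window no setting tried could have added a peak, since the nearest treated peak lay 69.4 kb outside it. Over 8.5 kb in place of 8 kb, peaks without a partner were 17.4% in untreated cells (4 of 23, 95% Wilson interval 6.98 to 37.1). In treated cells they were 41.7% (5 of 12, 19.3 to 68). These peaks are part of those over 8 kb, and the counts are small. No paired analysis was possible because each group holds 1 library. Unknown depth and threshold limit every statement on presence and width.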

Other observations

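The surroundings of Hmga2 were looked at after its values had been seen. Within 300 kb on either side of the centre of the untreated Hmga2 peak, 4 of 9 untreated H3K4me3 peaks had no treated partner, among them the Hmga2 peak with which the gene was chosen. Over the whole untreated list the share was 4.73% (812 of 17168). In the width classes of the 4 peaks it was 23.4% (545 of 2325) up to 1000 bp and 3.72% (206 of 5540) over 1000 to 2000 bp. It was 0.513% (26 of 5068) over 2000 to 3000 bp and 14.7% (5 of 34) over 8000 to 9000 bp. Besides the Hmga2 peak, those without a partner were chr10:120083524-120084140 (617 bp), chr10:120125458-120127109 (1652 bp) and chr10:120131197-120133212 (2016 bp). They all lay on the high side, between 172.1 and 221.8 kb from that centre. The other 5 untreated peaks were shared. Of the treated peaks 1 of 6 was in the treated list only, against 10.2% (1854 of 18185) over the whole treated list. Over the same distance around the middle of the Cdkn2a and Cdkn2b window, 1 of 7 untreated and 0 of 6 treated H3K4me3 peaks were without a partner. Around the Cdkn1a window the numbers were 0 of 10 untreated and 1 of 11 treated peaks. None of these 3 untreated peaks near Hmga2 is near the upper end of the listed widths. Whether a width limit acted at the Hmga2 peak itself was not tested. The genes of the 3 peaks are not named because no mm9 annotation was used.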
